A study of Rattus norvegicus with 2 samples.

Results

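The genes of the mitochondrial ribosomal proteins were examined in rat thymus after cocaine administration and in control thymus. The members were all transcript clusters of the array whose annotated gene symbol began with Mrpl or Mrps and a digit, which gave 69 genes of 15037 named genes, with 1 transcript cluster each. The letter after Mrp assigned 45 of them to the large subunit and 24 to the small subunit. Of these, mrpl9, mrpl11 and mrpl24 are written with a small letter in the annotation and were included. The cocaine sample came from male Sprague-Dawley rats that received 20 mg/kg/day cocaine hydrochloride in saline through the tail vein for 7 days. The control sample came from male rats of the same strain, unstimulated by the labels and, by the methods, injected with saline alone. Rats were 8 weeks old at the start and were killed 1 day after the last injection. Total RNA of each sample was run on 1 Clariom S array, on which a set of short probes measures each transcript cluster and the signal is given as an intensity, here on the log2 scale. Whether an array held RNA of 1 rat or of several pooled rats is not stated in the sources used here. There were 2 arrays in all, so no spread between animals could be measured, no test was run and every difference below is the difference between 2 arrays.

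Mitochondria carry their own ribosomes, which translate the few proteins encoded in mitochondrial DNA, all of them subunits of the respiratory chain and the ATP synthase. Each ribosome consists of a large subunit, which forms peptide bonds and releases the nascent chain through an exit tunnel at the inner membrane, and a small subunit, which binds and decodes the mRNA. Their RNAs come from mitochondrial DNA, while all of their proteins are encoded in the nucleus, made in the cytosol and imported. A part of these proteins has counterparts in bacterial ribosomes and the others are found only in mitochondria. Placement in the ribosome is known from human and pig structures and was applied to the rat symbols.

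The promoters of these genes are known in mammals for sites of the nuclear respiratory factors NRF1 and GABP (an ETS factor) and of YY1. Promoters of the RefSeq table (build GRCr8, 250 bases before to 50 after the start) were found for 58 of the 69 members and searched on both strands for the letters of 5 motifs. The upstream 250 bases of 4 members are shown. Mrps33 and Mrpl30 were chosen as the members with the largest positive and the largest negative difference between cocaine and control, and Mrpl57 and Mrpl36 because each holds matches to more than 1 motif. Capitals mark matches, on either strand, to the motifs of NRF1, ETS and YY1.
Mrps33, chr4:69566939-69567188, minus strand: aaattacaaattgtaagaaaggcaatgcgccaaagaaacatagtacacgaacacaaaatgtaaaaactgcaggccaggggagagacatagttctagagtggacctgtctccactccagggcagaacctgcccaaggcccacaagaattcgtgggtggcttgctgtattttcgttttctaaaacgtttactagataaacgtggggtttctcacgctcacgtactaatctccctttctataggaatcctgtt
Mrpl30, chr9:47620977-47621226, plus strand: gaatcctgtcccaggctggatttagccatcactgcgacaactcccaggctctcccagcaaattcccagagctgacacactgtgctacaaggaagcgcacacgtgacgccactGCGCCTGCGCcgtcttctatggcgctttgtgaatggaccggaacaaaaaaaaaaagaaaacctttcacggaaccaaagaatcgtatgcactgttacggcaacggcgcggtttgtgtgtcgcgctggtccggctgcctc
Mrpl57, chr15:36086207-36086456, plus strand: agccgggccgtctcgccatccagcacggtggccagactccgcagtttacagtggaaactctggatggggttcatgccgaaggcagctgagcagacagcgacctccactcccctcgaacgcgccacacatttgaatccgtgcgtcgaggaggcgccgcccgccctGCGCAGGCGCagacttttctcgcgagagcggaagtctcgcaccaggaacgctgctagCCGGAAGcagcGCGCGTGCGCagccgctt
Mrpl36, chr1:31795122-31795371, minus strand: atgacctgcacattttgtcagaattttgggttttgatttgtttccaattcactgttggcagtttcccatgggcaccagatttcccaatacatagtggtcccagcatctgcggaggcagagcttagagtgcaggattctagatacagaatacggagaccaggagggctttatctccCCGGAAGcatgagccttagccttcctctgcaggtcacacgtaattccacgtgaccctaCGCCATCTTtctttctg
In the stretches shown, Mrps33 had no match, Mrpl30 had 1 NRF1 match, Mrpl57 had 2 NRF1 matches and 1 ETS match, and Mrpl36 had 1 ETS and 1 YY1 match. The 50 bases after the start, which were searched but are not shown, held an ETS match in Mrpl30. A match of letters is a description of the window and not a measured site.

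Over all 58 promoters, the NRF1 motif (GCGCA and GCGC with any 1 base between them) was found in 10 (17.2%), against 7.35% of the 12435 named genes of the array with a promoter and 4.82% of all 27457 genes in the table. The ETS motif CCGGAAG was found in 19 members (32.8%), against 13.3% and 9.63%. The YY1 motif AAGATGGCG was found in 8 members (13.8%), against 2.61% and 1.99%. At least 1 of these 3 motifs was present in 30 members (51.7%), against 20.7% of named genes, and no member held all 3. None of these 3 motifs contains another. The Sp1 motif GGGCGG was present in 29 of the 58 members, against 50.4% of named genes, and the NF-Y motif CCAAT in 26 (44.8%), against 38.5%. The median GC content of the members' promoters was 56.0%, against 58.0% for named genes. The promoters of complex I subunits, taken by symbol, held the NRF1 and YY1 motifs in 20.0% each, and those of cytosolic ribosomal proteins in 7.14% and 5.36%. The ETS motif was found in 23.3% of complex I promoters and in 28.6% of those of cytosolic ribosomal proteins. At least 1 of the 3 motifs was present in 56.7% and 39.3%, so these groups also stood above all named genes. The YY1 motif was present in 7 of 25 members found only in mitochondria and in 1 of 33 members with a bacterial counterpart.

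**Figure D1:**
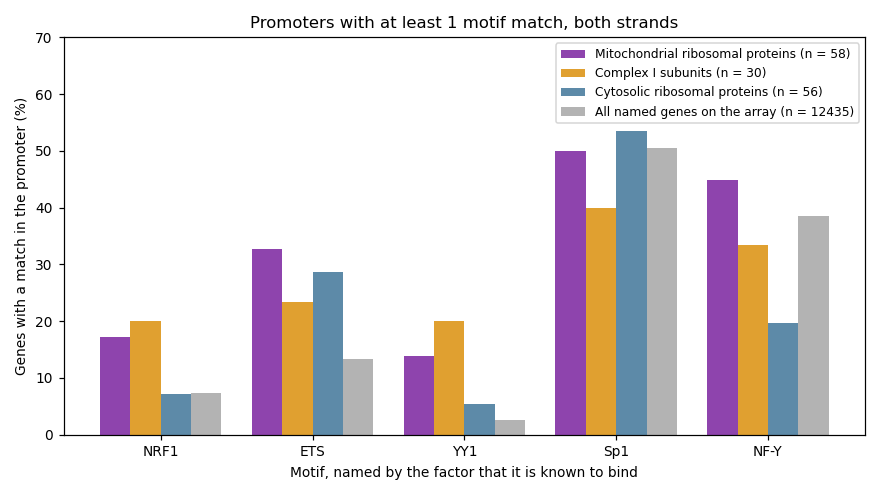
Share of genes (percent, vertical axis) whose promoter held at least 1 match to each of 5 motifs (horizontal axis), for the mitochondrial ribosomal proteins, complex I subunits, cytosolic ribosomal proteins and all named genes of the array. The members stand above all named genes for NRF1 (17.2% against 7.35%), ETS (32.8% against 13.3%) and YY1 (13.8% against 2.61%), and near them for Sp1.

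Both arrays carried the signals of thymus, the tissue in the sample titles, although the note on extraction in the labels names spleen. Of 8 measured markers of immature cortical thymocytes, Rag1, a recombinase gene of T cell receptor rearrangement, had a log2 intensity of 18.87 on the cocaine and on the control array. None of the 8 differed by more than 1.5-fold. With cocaine 3 of them were higher and 5 lower, from -0.27 (Cd4) to 0.35 (Rag2), with a median of -0.07. The medians over all 23188 transcript clusters were 6.74 in cocaine and 6.76 in control thymus, and the median difference was 0. In 6300 transcript clusters the deposited values were identical on both arrays. The 23 background probe rows were also identical on both arrays and reached 7.47. All 8 spiked control rows (poly-A and hybridization controls) were higher on the cocaine array, by 0.05 to 0.44 (median 0.15). A further 63 control rows named ERCC had a median difference of 0, with 16 higher, 6 lower and 41 identical. The part of the shift of the 8 spiked control rows in the differences below was not tested. Whole tissue was measured, so fewer cells of a type and less RNA per cell cannot be told apart.

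Log2 intensities of the 69 members ran from 5.89 to 13.33 on the cocaine array and from 5.89 to 13.31 on the control array, with medians of 8.98 and 8.88. Signals of different probe sets do not measure relative amounts of RNA, so the members are not ranked by them. The mean of the 2 arrays reached 6.74, the median over the table, in 62 members, and in none was it below the 25th percentile. On both arrays 54 members were above the highest background probe row, and 15 were not. The 15 were Mrps26, Mrpl14, Mrpl23, Mrpl2, Mrps12, Mrps16, Mrpl38, Mrpl44, Mrpl16, Mrpl12, mrpl24, Mrpl36, Mrpl50, Mrps24 and Mrps34. Mrps21 (13.33 with cocaine and 13.31 in the control) and Mrps34 (5.89 on both arrays) mark the ends of this range of signal, and Mrpl42 (12.90 and 13.04) and Mrpl53 (12.56 and 12.34) lie near its upper end.

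**Figure D2:**
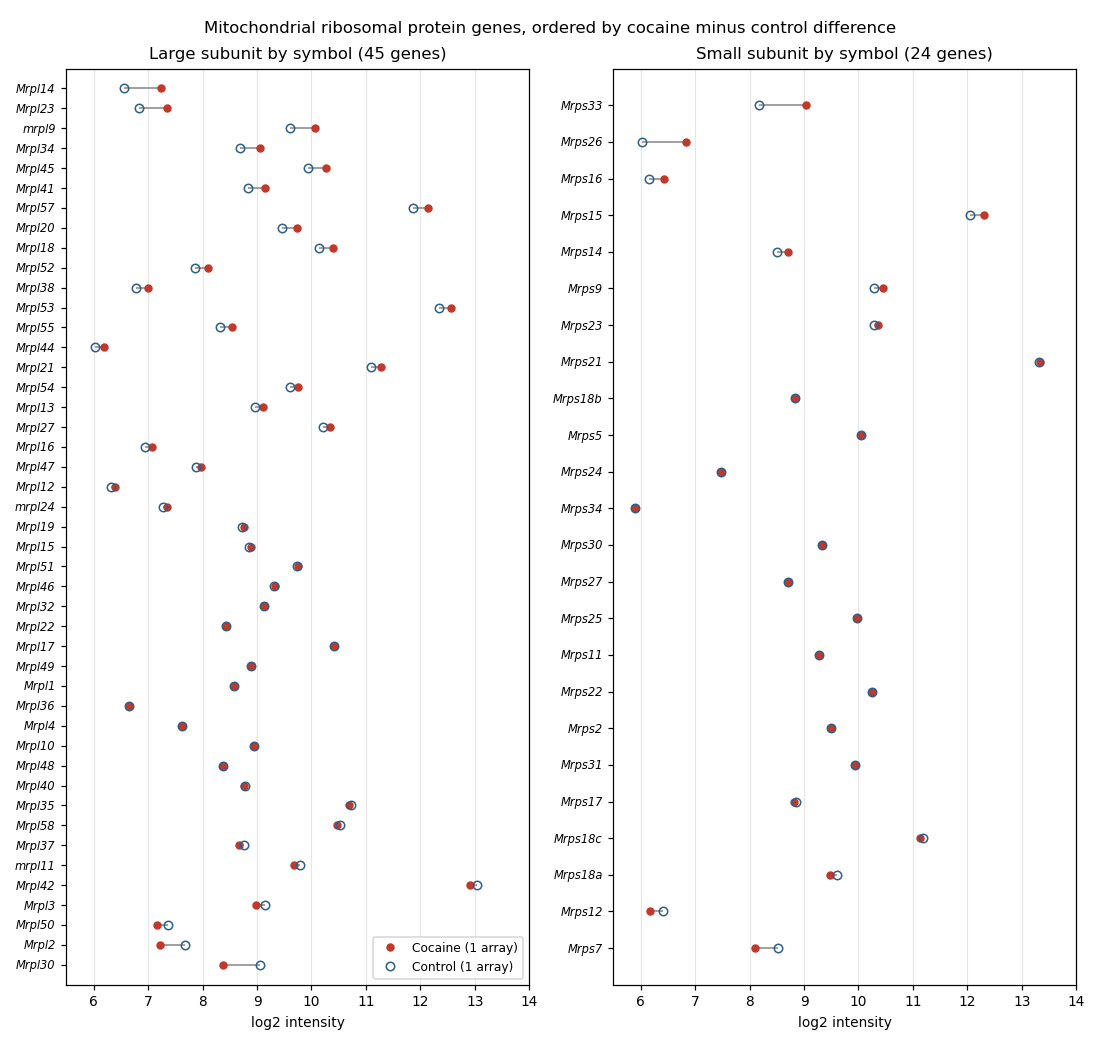
Log2 intensity (horizontal axis) of each member on the cocaine array (filled red) and on the control array (open blue), for the 45 large subunit genes (left) and the 24 small subunit genes (right), ordered by difference. Most pairs of points lie close together, and the widest gaps are those of Mrps33, Mrps26, Mrpl30 and Mrpl14.

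Of the 69 members, 3 were higher and 1 was lower by more than 1.5-fold in cocaine than in control thymus, and 65 lay within 1.5-fold. These are 4.35% and 1.45% of the members, while 2.09% of all transcript clusters were higher and 2.51% lower by as much. Among the 13434 transcript clusters in the members' range of mean intensity the shares were 2.63% higher and 2.11% lower. The counts of members are thus near these shares. No member differed by more than 2-fold, the limit the study used for its plot. When the arrays were centred on the spiked control rows, 2 members were higher and 2 lower, and 0.81% of all transcript clusters were higher and 5.10% lower. This centring lowered every difference by the same 0.15, so the median of all transcript clusters was -0.15 with it.

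Mrps33, a small subunit protein found only in mitochondria, had a log2 intensity of 9.03 in cocaine and 8.18 in control thymus, 1.81-fold higher. Mrps26, another small subunit protein without a bacterial counterpart, was 6.84 with cocaine and 6.04 in the control, 1.74-fold higher, with both values below the highest background probe row. Mrpl14 lies on the face of the large subunit that meets the small one, where in human mitochondria the silencing factor MALSU1 binds. It was 7.24 with cocaine and 6.55 in the control, 1.61-fold higher, also below that row on both arrays. The member lower by more than 1.5-fold was Mrpl30, a large subunit protein with a bacterial counterpart, at 8.37 with cocaine and 9.06 in the control (1.61-fold). The annotation of RefSeq lists 9 pseudogenes of Mrpl30, and whether its probes also bind their transcripts was not tested. Just inside the limit lay Mrpl23 (1.44-fold higher), Mrpl2 (1.38-fold lower) and mrpl9 (1.38-fold higher), and just outside it Mrpl14 and Mrpl30. The differences of Mrps33, Mrps26 and Mrpl30 passed 1.5-fold as deposited and under each of the 4 other scalings tried, while that of Mrpl14 was 0.53 on the log2 scale, within 1.5-fold, after centring on the spiked control rows. With that centring Mrpl2 differed by -0.61, past the limit.

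**Figure D3:**
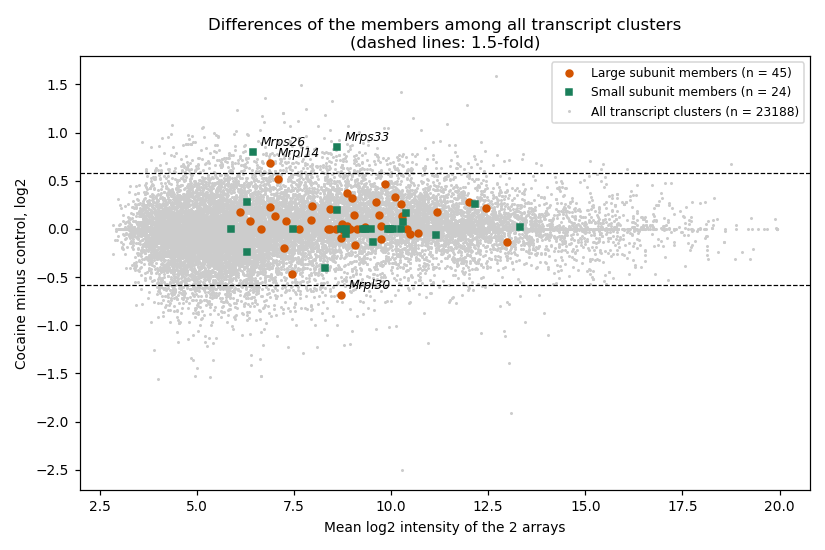
Cocaine minus control difference in log2 (vertical axis) against the mean log2 intensity of the 2 arrays (horizontal axis) for all 23188 transcript clusters (grey), with large subunit members (orange circles) and small subunit members (green squares). Members past the dashed 1.5-fold lines are named, 3 above and 1 below.

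By any amount, 34 members (49.3%) were higher with cocaine, 15 (21.7%) were lower and 20 (29.0%) held identical deposited values. Over all transcript clusters 37.0% were higher, 35.9% lower and 27.2% identical, and within the members' range of intensity 42.3% were higher, 32.8% lower and 24.9% identical. The median difference was 0 for the members, for all transcript clusters and for those in the members' range. Leaving out identical values, the median was 0.13 over 49 members, 0.0055 over all transcript clusters and 0.03 over those in the members' range. The mean over all 69 was 0.08, and 0.02 over the transcript clusters in their range. These counts changed with the scaling, under which the 20 members with identical deposited values take on a sign. Some small differences also turned, such as that of Mrpl19 (0.05 as deposited and -0.03 after quantile normalization). After quantile normalization 31 members were higher and 38 lower, and after a lowess curve was subtracted 33 and 36. Centring each array on its median gave 55 and 14, and centring on the spiked control rows 21 and 48. Across members, the difference was not related to signal, with Pearson's r of -0.07 and Spearman's rho of -0.04 over 69 genes of the same arrays, given as a description.

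The large and the small subunit were set side by side. Of 45 large subunit genes 26 were higher, 10 lower and 9 identical, and of 24 small subunit genes 8 were higher, 5 lower and 11 identical. Their median differences as deposited were 0.05 for the large and 0 for the small subunit, with middle ranges (25th to 75th percentile) of 0 to 0.22 and 0 to 0.09 that overlap. With the spiked control rows as the centre the medians were -0.10 and -0.15. By means of the values as deposited, the subunits were at 0.08 and 0.07. In human and pig structures Mrps18a and Mrps30 belong to the large subunit despite their names, and with this placement the medians were 0.03 over 47 and 0 over 22 genes. Proteins with bacterial counterparts had a median of 0.02 over 41 genes, and those found only in mitochondria a median of 0 over 28 genes. Of the 9 genes found only in mitochondria whose proteins lie in the small subunit of the structures, 3 were higher and 6 identical as deposited. After quantile normalization 4 were higher and 5 lower, but the 5 lower and Mrps34 were those with identical deposited values. With the spiked control rows as the centre 2 were higher and 7 lower, the 7 being the 6 identical genes and Mrps23. Over all transcript clusters 37.0% were higher and 35.9% lower as deposited. Mrps33 and Mrps26 were among the 3 and stayed higher under each scaling.

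Among proteins near the peptidyl transferase centre and the tRNA sites, 4 are described, of which Mrpl16 and Mrpl27 were picked after their values were seen. Mrpl2, which in bacteria helps to form the peptidyl transferase centre and a bridge to the small subunit, was 7.22 in cocaine and 7.68 in control thymus, a difference of -0.46. Mrpl3, whose bacterial counterpart reaches towards the same centre, was 8.98 with cocaine and 9.15 in the control. Mrpl16, the counterpart of a bacterial protein near the tRNA sites, was 7.08 and 6.95, and Mrpl27 was 10.35 and 10.22. Apart from Mrpl2 these pairs differed by less than 0.2. With the spiked control rows as the centre all 4 were below 0, at -0.61 for Mrpl2, -0.32 for Mrpl3 and -0.02 each for Mrpl16 and Mrpl27.

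Values of 6 large subunit genes at the exit tunnel are given, which were picked after their values were seen and stand for no direction of the group. Mrpl23 was 7.35 with cocaine and 6.83 in the control, a difference of 0.52. Mrpl45, which in human ribosomes ties the large subunit to the inner membrane, was 10.26 and 9.93. Smaller differences were found for mrpl24 (7.35 and 7.27) and Mrpl47 (7.97 and 7.88), and Mrpl22 (8.43) and Mrpl17 (10.41) held identical values on both arrays. With the spiked control rows as the centre, Mrpl23 and Mrpl45 differed by 0.37 and 0.19, while Mrpl47 (-0.06), mrpl24 (-0.07), Mrpl22 and Mrpl17 (-0.15 each) were below 0. In the stalk, which recruits translation factors, Mrpl10 was 8.94 on both arrays, mrpl11 at its base was 9.68 and 9.79, and Mrpl12 was 6.40 and 6.32, below the highest background probe row.

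Of the 28 large subunit genes with a bacterial counterpart, 16 were higher, 5 lower and 7 identical as deposited, with a median of 0.06. With the spiked control rows as the centre 8 were higher and 20 lower, with a median of -0.09. Over all transcript clusters 37.0% were higher and 35.9% lower as deposited. Their median was 0 as deposited and -0.15 with that centre. Of those within 1.5-fold, mrpl9 was 10.06 with cocaine and 9.60 in the control, Mrpl34 was 9.06 and 8.68, Mrpl20 was 9.74 and 9.46, and Mrpl18 was 10.39 and 10.14. Of the 19 genes found only in mitochondria whose proteins lie in the large subunit of the structures, 10 were higher, 6 lower and 3 identical, within -0.20 to 0.34. The highest of these after Mrpl45 were Mrpl41 (9.15 with cocaine and 8.83 in the control) and Mrpl57 (12.14 and 11.86), and the lowest were Mrpl50 (7.16 and 7.36) and Mrpl42. Mrpl37 was 8.66 with cocaine and 8.75 in the control. Mrpl58, a release factor that has become part of the large subunit, was 10.46 with cocaine and 10.52 in the control, and Mrpl44, which has a fold of the RNase III family, was 6.19 and 6.02.

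In the small subunit, Mrps7 of the head, where its bacterial counterpart binds rRNA, was 8.11 with cocaine and 8.51 in the control, a difference of -0.41. Mrps12, whose bacterial counterpart lies at the decoding centre, was 6.17 and 6.42, both below the highest background probe row. On the other side were Mrps15 (12.30 with cocaine and 12.04 in the control) and Mrps16 (6.43 and 6.15). Both values of Mrps16 were also below the highest background probe row. Mrps2, Mrps5, Mrps11, Mrps22, Mrps24, Mrps25, Mrps27, Mrps30, Mrps31 and Mrps34 held identical values on both arrays. The same held for Mrps18b. The paralogs Mrps18a, Mrps18b and Mrps18c are all related to 1 bacterial protein, although only Mrps18c is counted here as its counterpart. Mrps18a was 9.48 with cocaine and 9.61 in the control, Mrps18b was 8.84 on both arrays and Mrps18c was 11.12 and 11.19, so none was higher with cocaine. Mrps17 was 8.81 and 8.86.

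Ribosomal subunit proteins with other symbols moved little. Of 5 measured, Aurkaip1 was higher (10.97 with cocaine and 10.73 in the control), Ptcd3 (10.43 and 10.65) and Dap3 (12.60 and 12.63) were lower, and Chchd1 and Gadd45gip1 were identical. Of 24 measured genes of rRNA modification and ribosome assembly, 2 passed 1.5-fold, both of them higher with cocaine, and 22 did not. They were Gtpbp10, a GTPase of large subunit assembly (8.72 with cocaine and 7.93 in the control, 1.73-fold), and Mrm3, an rRNA methyltransferase (8.18 and 7.42, 1.70-fold). Malsu1, the factor that binds next to Mrpl14, was 8.62 and 8.24, and the gene furthest below 0 was Mrm1 (7.98 and 8.11). The median of the assembly genes was 0.01, and -0.14 with the spiked control rows as the centre.

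Of 15 measured factors of mitochondrial translation, Gfm1, the elongation factor of translocation, was higher by 1.52-fold (10.71 with cocaine and 10.10 in the control), a difference that was within 1.5-fold after quantile normalization, lowess and centring on the spiked control rows. The release factor gene Mtrfr was 7.69 and 7.21, and the ribosome recycling factor gene Mrrf was 10.06 with cocaine and 10.41 in the control. Tufm, the elongation factor that delivers tRNA, was 8.27 on both arrays. Of 16 genes that maintain or express mitochondrial DNA, the RNA helicase gene Supv3l1 was 1.65-fold higher (9.43 with cocaine and 8.71 in the control) and none was lower by more than 1.5-fold. Polrmt, the mitochondrial RNA polymerase, was 9.48 and 9.09, Ssbp1, which binds single-stranded mitochondrial DNA, was 11.95 and 12.18, and Tfam, which packages it, was 11.17 on both arrays. Both lists had a median difference of 0 as deposited. After quantile normalization the medians were -0.03 for translation factors and -0.05 for the genes of mitochondrial DNA, and with the spiked control rows as the centre both were -0.15.

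Of 10 regulators of mitochondrial genes, Tfe3 (6.97 with cocaine and 6.35 in the control) and Ppargc1a (4.40 and 3.79, a row below the 25th percentile) were higher by more than 1.5-fold. Both genes were below the highest background probe row on both arrays. The factors whose motifs were searched differed little, with Nrf1 at 14.43 and 14.40, the GABP subunit gene Gabpa at 11.57 and 11.49, and Yy1 at 11.39 on both arrays. Myc, an activator of ribosome production, was 11.10 on both arrays. The median of the 10 was 0.01, and -0.0006 after lowess and -0.14 with the spiked control rows as the centre. With that centre neither Tfe3 nor Ppargc1a passed 1.5-fold, nor did Supv3l1. Of 14 cell cycle genes, Tyms was higher by more than 1.5-fold (13.40 and 12.68), Mki67 was 15.46 with cocaine and 15.96 in the control, and the median was 0.0012, which turned to -0.04 after quantile normalization, -0.02 after lowess and -0.15 with the spiked control rows as the centre. With that centre Tyms was within 1.5-fold and Mki67 was lower past it.

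The members were set beside the subunits of respiratory complex I, in part products of the mitochondrial ribosome, and beside the proteins of the cytosolic ribosome. Complex I subunits were taken by symbol (Ndufa, Ndufb, Ndufc, Ndufs or Ndufv and a digit), which gave 31 genes, all nuclear. The place of each protein in the complex was not checked. Of the 31 genes, 2 were higher by more than 1.5-fold, Ndufb8 (11.13 with cocaine and 9.98 in the control) and Ndufs7 (8.31 and 7.64), and none was lower. By any amount 22 of these were higher, 6 lower and 3 identical, and their median was 0.17, against 0 for the mitochondrial ribosomal proteins. After centring on the spiked control rows the medians were 0.02 and -0.15, and Ndufs7 was within 1.5-fold. Of 66 cytosolic ribosomal protein genes, Rps13 was 1.63-fold higher (13.26 and 12.56) and none was lower by as much, with 41 higher, 15 lower and 10 identical and a median of 0.03, which was -0.12 with the spiked control rows as the centre. With that centre Rps13 was within 1.5-fold. With 1 array per group the differences between these groups could not be tested, and nothing is called particular to the mitochondrial ribosome from them.

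**Figure D4:**
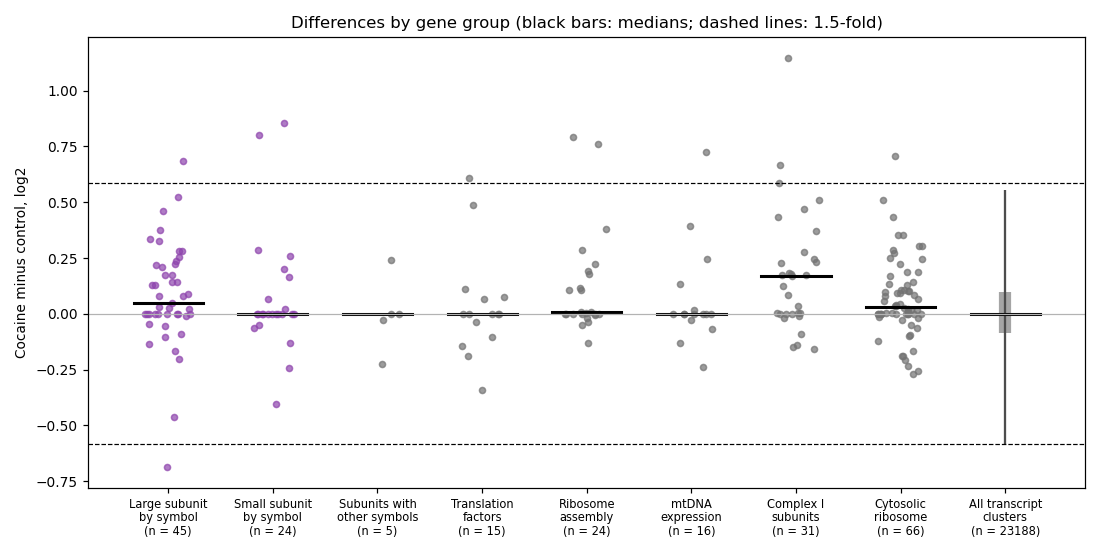
Cocaine minus control difference in log2 (vertical axis) of the large and small subunit members (purple), of 6 other gene groups (grey points) and of all transcript clusters (box, 25th to 75th percentile, and line, central 95%). Black bars are medians, which are 0.05 and 0 for the subunits and 0.17 for complex I, and dashed lines mark 1.5-fold.

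Many members share their start region with a neighbour. Of the 58 members in the promoter table, 18 (31.0%) had the start of a gene on the opposite strand within 1000 bases upstream, against 12.9% of named genes on the array, 36.7% of complex I subunits and 14.3% of cytosolic ribosomal proteins. Mrpl46 and Mrps11 are such a pair on chromosome 1, and both are members. Mrpl46 was 9.34 with cocaine and 9.32 in the control, and Mrps11 was 9.28 on both arrays. Mrpl30 lies head to head with Mitd1, which held identical values (9.66), whereas Mrpl30 differed by -0.69. Mrpl2 is paired with Klc4 (7.76 on both arrays), and Mrps18c with the helicase gene Helq (8.81 with cocaine and 8.41 in the control). On chromosome 9, Mrps18a and Mrpl14 are separated by 2 protein-coding genes, and their differences were -0.13 and 0.68.

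Markers of other cells that thymus can hold were also measured. Sums of linear intensity over a list weigh each marker by the brightness of its probes and are no measure of the share of a cell type, so the directions of the single markers stand beside them. Among adipocyte markers (8 measured), Adipoq, Fabp4, Gpd1 and Pparg were lower past 1.5-fold. The other 4 were within it, with Cidec, Cfd and Lipe higher and Lep identical. Pparg, Cidec, Cfd, Lipe and Lep were below the highest background probe row on both arrays. The adipocyte sums were 4555 in cocaine and 9079 in control thymus, and 1057 and 1692 without Fabp4, the brightest marker. Of 10 macrophage markers, 7 were higher, 1 (Lyz2) lower and 2 identical, with a median of 0.17. Only Csf1r passed 1.5-fold (6.57 with cocaine and 5.93 in the control), and it was within 1.5-fold with the spiked control rows as the centre. Both values of Csf1r were below the highest background probe row. The macrophage sums were 37733 and 47772, and 6773 and 6274 without Lyz2, the brightest marker. No marker of B cells (5 measured) or thymic epithelium (8 measured) passed 1.5-fold, with median differences of 0.04 and 0.01. Of the B cell markers 4 were higher and 1 lower, and of the epithelial markers 4 were higher, 2 lower and 2 identical. The sums were 849 and 741 for B cells, and 623 and 512 without their brightest marker, Cd79b. For thymic epithelium they were 107809 and 87109, and 20982 and 19265 without its brightest marker, Prss16. Of 7 erythroid markers 3 were higher, 3 lower and 1 identical, and 1 (Slc4a1) was lower by more than 1.5-fold. The erythroid sums were 532 and 542, and 176 and 189 without Hbb, the brightest marker. Of 9 brown adipocyte markers, a cell type rich in mitochondria, 4 were higher, 4 lower and 1 identical, with a median of 0 and sums of 804 and 875. Lhx8, and Ppargc1a with a row below the 25th percentile, were higher past 1.5-fold, and Cox8b (4.68 with cocaine and 5.21 in the control), Cidea (7.71 and 8.16), Kcnk3 (4.99 and 5.41) and Dio2 (7.44 and 7.75) were lower within it. Slc4a1, Cox8b and Kcnk3 were also below the 25th percentile, and Lhx8 was below the highest background probe row on both arrays. The 69 members summed to 73608 in cocaine and 70028 in control thymus. The part of these cell types in the differences of the members was not tested.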

How the data were processed

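Thymus RNA of 1 cocaine sample and 1 control sample was measured on 2 Clariom S arrays. Samples were grouped by their titles. The note on RNA extraction in the labels names spleen, and the samples were treated as thymus. The authors used the Transcriptome Analysis Console and deposited an intensity on a linear scale for every transcript cluster. Its version and how background and scale were treated were not given in the sources used here. Of 24834 rows, 1646 control rows were left out, which left 23188 transcript clusters, of which 15049 had 1 gene symbol, 8139 none and none several in the platform annotation. All 69 members matched RefSeq (GRCr8) by gene number. RefSeq lists 12 more protein-coding genes of these names, which were not analysed here.

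Intensity values were taken to log2 as deposited. Further scaling was not used because the medians of both arrays were near-equal and quantile normalization gives differences to rows with identical values. With 1 array per group no test was run, and precision is limited by the number of arrays. Differences are cocaine minus control, and a fold divides the brighter by the dimmer value. A difference was counted past 1.5-fold, with 2-fold and 25% above the dimmer value as alternatives. Other scalings were quantile normalization, centring on the median, a lowess curve and, added after the data were seen, centring on the spiked control rows. For genes with several transcript clusters the brightest was used. Members and lists were chosen with earlier results of these data known. Values are given for members past 1.5-fold, for the 12 highest and 12 lowest differences, for those near the limit, the Mrps18 paralogs, Mrpl12 and Mrps30, and for others named after their values were seen (Mrpl16, Mrpl27, Mrpl44, Mrps17, Mrps21, Mrpl18, Mrpl53, the small subunit genes with identical values, the exit tunnel and stalk genes and the paired genes). In each list, genes past 1.5-fold and some of the largest differences are named. Protein sequences were not used here. Counting past 1.5-fold was checked on simulated data with planted differences and less noise than the arrays. This covered the values as deposited and the quantile, median and lowess scalings. Centring on the spiked control rows, the gene lists and the promoter searches were not checked in this way. Calculations used pandas 2.3.3 and numpy 2.4.6 under Python 3.11.15, the lowess curve statsmodels 0.14.6, and plots matplotlib 3.10.9.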

Additional observations from a re-analysis of the deposited data

Results flagged for a closer look

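The 8 spiked control rows, which belong to no comparison of genes, all had a higher signal on the cocaine array than on the control array. On the log2 scale the median difference was 0.1501 and the range 0.05 to 0.44. They comprise 4 poly-A controls (median 0.12) and 4 hybridization controls (median 0.17). The 63 control rows named ERCC did not share this shift as a set, with a median of 0, 16 higher, 6 lower and 41 identical. The part of the shift of the 8 rows in the differences of the members was not tested.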

How the results depend on the processing

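No paired analysis was possible because there was a single array per group, which also means that no array could be left out. The counts of 3 higher and 1 lower member past 1.5-fold were the same, and for the same 4 genes, after quantile normalization, median centring and lowess. A 2-fold limit gave 0 and 0 (0.129% and 0.220% of all transcript clusters), and a limit at 25% above the dimmer value gave 8 and 3 (8.68% and 8.99%). There were 1 and 1 among the 54 members above the highest background probe row on both arrays, a filter chosen after seeing the data (2.33% and 1.18% of the 9575 transcript clusters above it). With the arrays centred on the spiked control rows, also chosen after seeing the data, there were 2 lower members, the median of all transcript clusters was -0.15, and the medians were -0.15 for all members, -0.10 for the large subunit and -0.15 for the small subunit. The difference between the subunit medians was 0.05, and 0.03 to 0.08 under the alternatives that kept medians. Between the subunit means it was 0.0097. The median of all members was -0.03 after quantile normalization, -0.01 after lowess and 0.02 after median centring. With the spiked control rows as the centre the medians of the lists turned to -0.14 for assembly, -0.14 for regulators, -0.15 for cell cycle genes and -0.12 for cytosolic ribosomal proteins. The regulators had a median of -0.0006 after lowess, and the cell cycle genes -0.0354 after quantile normalization and -0.021 after lowess. For single members, all 69 values stayed within 1 local robust SD of the value as deposited under the other 3 scalings. Quantile normalization moved no member by more than 0.0822, less than any of these SDs. Centring on the spiked control rows moved every member by the same 0.15, so its 41 of 69 within 1 SD reflects only the size of the SD. These counts do not measure how stable single members are. Of the 4 genes past 1.5-fold, Mrps26 and Mrpl14 were below the highest background probe row on both arrays.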
